A study of Ovis aries with 12 samples.

Results

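The change in muscle gene expression from 10 to 20 days after birth was measured by setting the 4 lambs aged 20 days against the 4 lambs aged 10 days, with callipyge and normal lambs weighted equally. These 8 lambs were chosen by the age in their labels, out of 12 lambs in the whole time course. The remaining 4 lambs were 30 days old. Each age held 2 callipyge lambs (genotype +/CLPG, 1 copy of the callipyge allele) and 2 wild-type lambs (+/+), and each lamb gave 1 Affymetrix bovine expression array. The tissue was longissimus dorsi, the long muscle of the back and loin, and all lambs nursed their dams until shortly before they were killed. The labels call the lambs of a group biological replicates. Sex, flock and parentage were not given in the sources used here.

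Callipyge is an overgrowth of the loin and hindquarter muscles that is not present at birth and develops in young lambs. It arises in lambs that inherit the mutation from their father, through raised expression of imprinted genes around DLK1 and the noncoding RNA MEG3. Muscle fibres are already formed in a newborn lamb, so later growth comes mainly from enlargement of existing fibres. In the same weeks embryonic and neonatal forms of contractile proteins give way to adult forms, while a fat-rich milk diet supplies much of the fuel.

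Levels below are log2 of the deposited intensity after each array was scaled to a common trimmed mean and 16 was added, and a difference is always 20 minus 10 days on that scale. Fold values are read on the same scale and so understate the change of dim genes. After control probe sets were dropped, 24016 probe sets remained, and the 12008 with the higher mean level were tested. Of the tested probe sets, 7927 carried 1 gene symbol and represented 6346 genes. The probes were designed on cattle sequence and the RNA came from sheep, so a low level can be a poor match as well as little RNA, and in whole muscle fewer cells of a type and less RNA per cell cannot be told apart. All 10 markers used to check the tissue, among them ACTA1, CKM and MYH1, were tested, and their differences lay between -0.08 and 0.02.

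Arrays of the same group correlated at 0.956 to 0.969. The first principal component, which held 17.1% of the variance, placed the 10 day lambs between -22.0 and -12.4 and the 20 day lambs between -1.33 and 4.81. The replicate 2 arrays of both genotypes at 30 days lay farthest along it, at 15.9 and 27.5. The log2 trimmed mean before scaling was 6.14 ± 0.23 (SD, n = 4) at 10 days and 6.28 ± 0.27 (SD, n = 4) at 20 days, and a 2-sided exact permutation of ages within genotype gave p = 0.278, where the smallest possible was 0.0556. The difference between the 3′ and 5′ GAPDH control probe sets, a measure of RNA integrity, was 0.31 ± 0.04 at 10 days and 0.34 ± 0.13 at 20 days (SD, n = 4 each; exact permutation p = 0.889). Normal replicate 1 of 20 days had the largest value of all 12 arrays, 0.53, while the other arrays of that age had 0.24 to 0.31.

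No probe set passed an adjusted p of 0.05 for the change from 10 to 20 days, in limma with Benjamini-Hochberg adjustment over the 12008 tested (0%). The smallest adjusted p was 0.124. An unadjusted p under 0.05 was reached by 1011 probe sets, 8.42% of those tested, against 600.4 that this threshold would give by chance. Of them, 458 lay higher at 20 days and 553 lower. This split turned on the scaling: arrays centred on their medians gave 615 higher and 405 lower, and unscaled arrays, whose median difference was 0.10, gave 589 and 107. The 4 lambs of one age lay wholly above the 4 of the other in 260 probe sets higher at 20 days (2.17%) and in 312 lower (2.6%). The median difference over all tested probe sets was -0.02, with a median standard error of 0.18, and a difference of at least 2-fold was seen in 17 probe sets higher and 13 lower. The 30 day arrays do not enter the difference, but they share in the estimate of the spread. When only the 8 lambs of 10 and 20 days were fitted with 4 group means, 9 probe sets passed, 5 higher and 4 lower. Leaving out both replicate 2 arrays of 30 days is nearly the same fit, since a lone lamb in a group adds nothing to the spread. The 2 settings are thus not separate checks. With age and genotype as additive terms over the 8 lambs, 0 passed. Every gene below is therefore given as a measured difference with its error, and unadjusted p-values serve to describe and rank.

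GPX3, a secreted selenium-containing peroxidase that removes lipid and hydrogen peroxides, had the smallest p of any gene. Its level was 6.92 and 7.44 in the callipyge lambs and 7.72 and 7.32 in the normal lambs at 10 days. At 20 days it was 8.38 and 8.38 in callipyge and 8.71 and 8.59 in normal. All 4 older lambs lay above all 4 younger ones, in both genotypes. The difference was 1.16 ± 0.18 (SE), or 2.24-fold, with limma adjusted p = 0.124. This became 0.0307 over the 8 lambs with 4 group means. Callipyge lambs differed by 1.20 and normal lambs by 1.13, and from 20 to 30 days GPX3 differed by only 0.04.

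DUSP26, a dual-specificity protein phosphatase, lay higher at 20 days in 2 probe sets. In the first its level was 6.57 and 6.49 in callipyge and 6.63 and 7.04 in normal lambs at 10 days, against 7.72, 7.53, 7.71 and 7.91 in the same order at 20 days. The ages did not overlap, and the difference was 1.04 ± 0.21 (SE; limma adjusted p = 0.155). The second probe set differed by 1.20 ± 0.36 (SE; limma adjusted p = 0.355). Both had a limma adjusted p of 0.0307 over the 8 lambs with 4 group means.

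RCAN1, an inhibitor of the calcium-activated phosphatase calcineurin, was 8.26 and 8.56 in callipyge and 8.46 and 8.31 in normal lambs at 10 days. At 20 days it was 8.84 and 9.18 in callipyge and 9.36 and 9.33 in normal. The older lambs all lay higher, by 0.78 ± 0.13 (SE; limma adjusted p = 0.124). CALCOCO2, a receptor that delivers damaged organelles and microbes to autophagy, was 9.11, 8.79, 8.59 and 8.56 at 10 days and 9.56, 9.83, 9.20 and 9.44 at 20 days, callipyge lambs first. It too did not overlap between ages, and it differed by the same amount, 0.75, in callipyge and in normal lambs. Its difference over both was 0.75 ± 0.14 (SE; limma adjusted p = 0.139).

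The integrin subunit ITGB5 and the ubiquitin ligase RLIM complete the 6 genes with the smallest p among those higher at 20 days, and both carry a reservation that the others do not. One ITGB5 probe set, with a dim 10 day mean of 5.41, lay higher by 0.91 ± 0.16 (SE; limma adjusted p = 0.126). A second, with a 10 day mean of 12.33, differed by 0.04 ± 0.09. RLIM lay higher by 0.74 ± 0.14 (SE; limma adjusted p = 0.139), with overlap between ages. Its 10 day level was 8.05 and 7.70 in callipyge lambs but 6.67 and 6.77 in normal lambs, against 7.93 to 8.21 in the 4 lambs at 20 days. The 2 young normal lambs were thus the low ones. The change was 0.22 in callipyge and 1.26 in normal lambs, and its difference between genotypes had an adjusted p of 0.996.

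**Figure D1:**
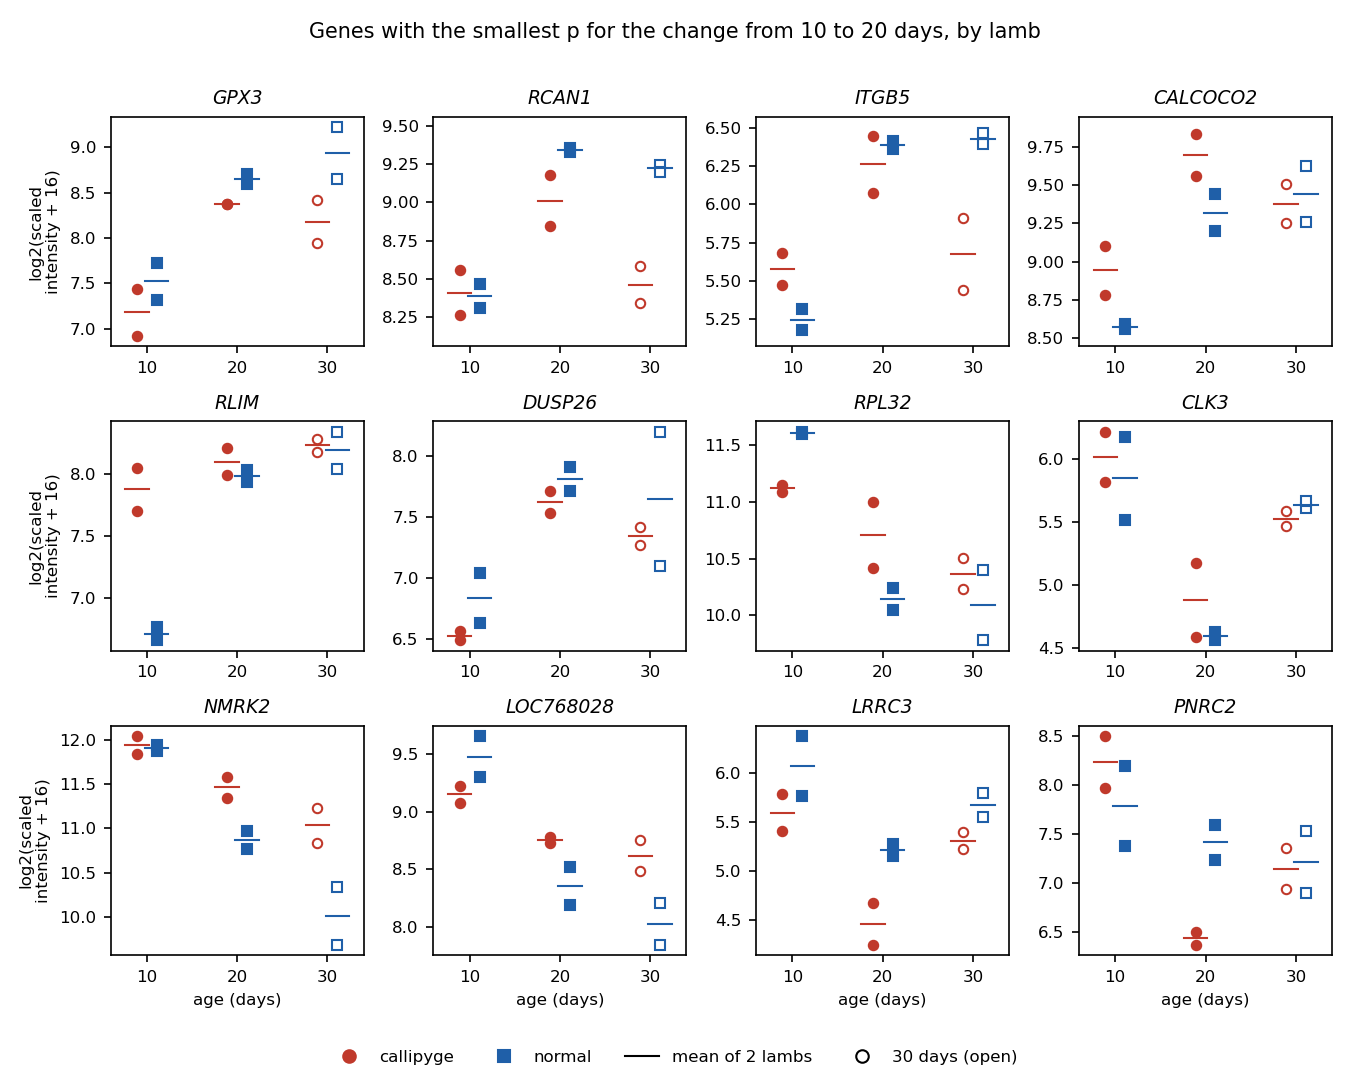
Level of the 12 genes with the smallest p for the change from 10 to 20 days, 6 higher and 6 lower, as log2(scaled intensity + 16) against age in days. Each point is 1 lamb (red circles callipyge, blue squares normal, open symbols 30 days) and each bar the mean of 2 lambs; GPX3 lies between 6.92 and 7.72 at 10 days and between 8.38 and 8.71 at 20 days.

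Among genes lower at 20 days, NMRK2 had close replicates and no overlap. It encodes a muscle kinase that turns nicotinamide riboside into a precursor of NAD. Its level was 12.05 and 11.84 in callipyge and 11.88 and 11.95 in normal lambs at 10 days, and 11.59, 11.34, 10.77 and 10.97 in the same order at 20 days. The difference was -0.76 ± 0.15 (SE), with limma adjusted p = 0.139, or 0.0307 over the 8 lambs with 4 group means. The normal lambs differed by -1.05 and the callipyge lambs by -0.48, and the difference between genotypes had an unadjusted p of 0.0761. NMRK2 lay lower again at 30 days, by -0.65 from 20 days, with a limma adjusted p of 0.149.

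PNRC2, which takes part in messenger RNA decapping and decay, was 8.50 and 7.97 in callipyge and 7.38 and 8.20 in normal lambs at 10 days. At 20 days it was 6.50 and 6.37 in callipyge but 7.24 and 7.59 in normal. The callipyge lambs accounted for most of the separation, with a change of -1.80 against -0.37 in normal lambs, whose ages overlapped. The difference over both genotypes was -1.09 ± 0.22 (SE; limma adjusted p = 0.155). A second PNRC2 probe set differed by -0.10.

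For CLK3 and RPL32 the lower level at 20 days was seen in 1 probe set and not in the others. CLK3 phosphorylates splicing factors. Its probe set was 6.22, 5.82, 6.18 and 5.52 at 10 days and 4.58, 5.18, 4.56 and 4.63 at 20 days, callipyge lambs first, a difference of -1.19 ± 0.20 (SE; limma adjusted p = 0.124) with no overlap. The 20 day mean of that probe set, 4.74, was dim. A second CLK3 probe set, with a 20 day mean of 7.58, differed by -0.07. RPL32, a protein of the large ribosomal subunit, differed by -0.94 ± 0.16 (SE; limma adjusted p = 0.124) in one probe set and by 0.00 and 0.05 in the others. The 10 day means were 11.36 in the first and 6.39 and 5.56 in the others, which were far dimmer. In the one that differed, callipyge lambs changed by -0.41 and normal lambs by -1.46. The leucine-rich repeat gene LRRC3 (-0.99 ± 0.20, SE, limma adjusted p = 0.151) had 1 tested probe set and no overlap between ages, with a dim 20 day mean of 4.84. The uncharacterised LOC768028 (-0.76 ± 0.15, SE, limma adjusted p = 0.139) also had 1 tested probe set and no overlap.

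The fit over 8 lambs in which 9 probe sets passed also brought in 3 genes that the ranking by p did not name. These genes were chosen after their values were seen. ASIP, the agouti signalling protein best known for switching hair pigment type, was 8.70 and 8.50 in callipyge lambs but 5.97 and 5.63 in normal lambs at 10 days. At 20 days it was 8.04 and 8.04 in callipyge and 9.07 and 8.53 in normal, and at 30 days the 2 lambs of each genotype stood far apart, at 5.94 and 9.09 in callipyge and 8.32 and 5.92 in normal. Low levels were thus found in normal lambs only at 10 days, and in a lamb of each genotype at 30 days. The difference from 10 to 20 days was 1.22 ± 0.57 (SE, limma adjusted p = 0.598), with overlap between ages. LGALS1, the lectin galectin-1, lay lower at 20 days by -0.88 ± 0.24 (SE; limma adjusted p = 0.299) without overlap between ages. One EED probe set lay lower by -0.87 ± 0.18 (SE; limma adjusted p = 0.162), while the 16 other tested probe sets annotated to EED, a Polycomb subunit, differed by -0.49 to 0.63.

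Gene lists were read with the brightest tested probe set of each gene, so differences in dimmer probe sets do not enter the counts. Over all 6346 tested genes the median difference was -0.02. An unadjusted p under 0.05 was reached by 259 genes higher at 20 days (4.08%) and 299 lower (4.71%). The 2 ages did not overlap in 136 genes higher (2.14%) and 161 lower (2.54%). Each count below is to be read against these shares, and none of the genes in it passed the adjusted threshold. The lists were chosen with earlier results of these data known, so setting a count beside the shares describes it and is not a test.

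Of 18 tested genes of fatty acid and sterol synthesis 14 lay below 0 and 4 above, 8 lower with an unadjusted p under 0.05 and none higher at that level. The median difference was -0.36 over both genotypes, -0.37 in callipyge and -0.28 in normal lambs. It was -0.22 without the normal 20 day replicate 2 array and between -0.42 and -0.29 without any other single array. FASN, the fatty acid synthase, was 6.47 and 6.51 in callipyge and 6.49 and 6.27 in normal lambs at 10 days, against 5.87, 5.78, 5.91 and 5.31 at 20 days. ACLY, which makes the acetyl-CoA that FASN uses, was 6.73, 6.50, 6.53 and 6.42 at 10 days and 6.24, 6.16, 6.03 and 5.58 at 20 days, callipyge lambs first. In neither gene did the ages overlap, and the differences were -0.72 ± 0.21 (SE; limma adjusted p = 0.347) and -0.54 ± 0.18 (SE; limma adjusted p = 0.422).

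Of the 8, HMGCS1, CYP51A1, SQLE and MVD make sterols. HMGCS1, which makes the first committed precursor of the mevalonate pathway, was 7.99 and 8.20 in callipyge and 8.21 and 7.63 in normal lambs at 10 days, and 7.52, 7.57, 7.11 and 7.44 at 20 days. The ages did not overlap, and the difference was -0.60 ± 0.17 (SE; limma adjusted p = 0.322). CYP51A1, a later enzyme of cholesterol synthesis, did not overlap either and differed by -0.53 ± 0.21 (SE). SQLE (-0.64), which oxidises squalene, and MVD (-0.40), which makes isopentenyl diphosphate, lay lower with 1 or more lambs overlapping.

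SCD and INSIG1 differed mostly in callipyge lambs. SCD, the desaturase that makes oleate, was 7.16 and 8.0 in callipyge and 6.57 and 7.05 in normal lambs at 10 days, against 6.57, 6.19, 6.71 and 6.31 at 20 days. INSIG1, which holds back the sterol-sensing activation of this pathway, was 8.40 and 7.76 in callipyge and 6.93 and 6.72 in normal lambs at 10 days, against 6.89, 5.78, 6.40 and 7.12 at 20 days. In both genes the callipyge lambs of 10 days lay above all lambs of 20 days, while the normal lambs overlapped. INSIG1 changed by -1.74 in callipyge and -0.06 in normal lambs, with an unadjusted p of 0.00888 for that difference, which did not pass after adjustment. Averaged over the list, the level relative to all genes was -0.32 and -0.22 in callipyge and -0.60 and -0.60 in normal lambs at 10 days, and -0.69, -0.72, -0.77 and -0.80 at 20 days. All 4 older lambs thus lay below all 4 younger ones in this mean.

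The count of 8 lower genes lay between 6 and 8 when single arrays were left out, and was 9 without both 30 day replicate 2 arrays. Without scaling it was 4, with a median of -0.23. From 20 to 30 days the list's median was -0.02, with 0 genes at an unadjusted p under 0.05 in either direction, against 3.03% of all genes higher and 7.22% lower; both intervals use the 20 day arrays. Adipocyte markers had 9 tested genes, of which 1 lay higher and 2 lower at that level. The higher one was CFD (0.46), which the complement list also holds. The lower ones were FASN and SCD, which the lipid synthesis list also holds. The fat cell markers ADIPOQ, LEP and CIDEC fell below the filter. The intensity summed over all adipocyte list genes, dim ones included, ran from 3031 to 3583 at 10 days and from 2774 to 3211 at 20 days. GPD1, at a mean level of 11.23, was by far the brightest of them, so the sum mostly follows GPD1. The part of fat cells in the lower synthesis genes was not tested.

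**Figure D2:**
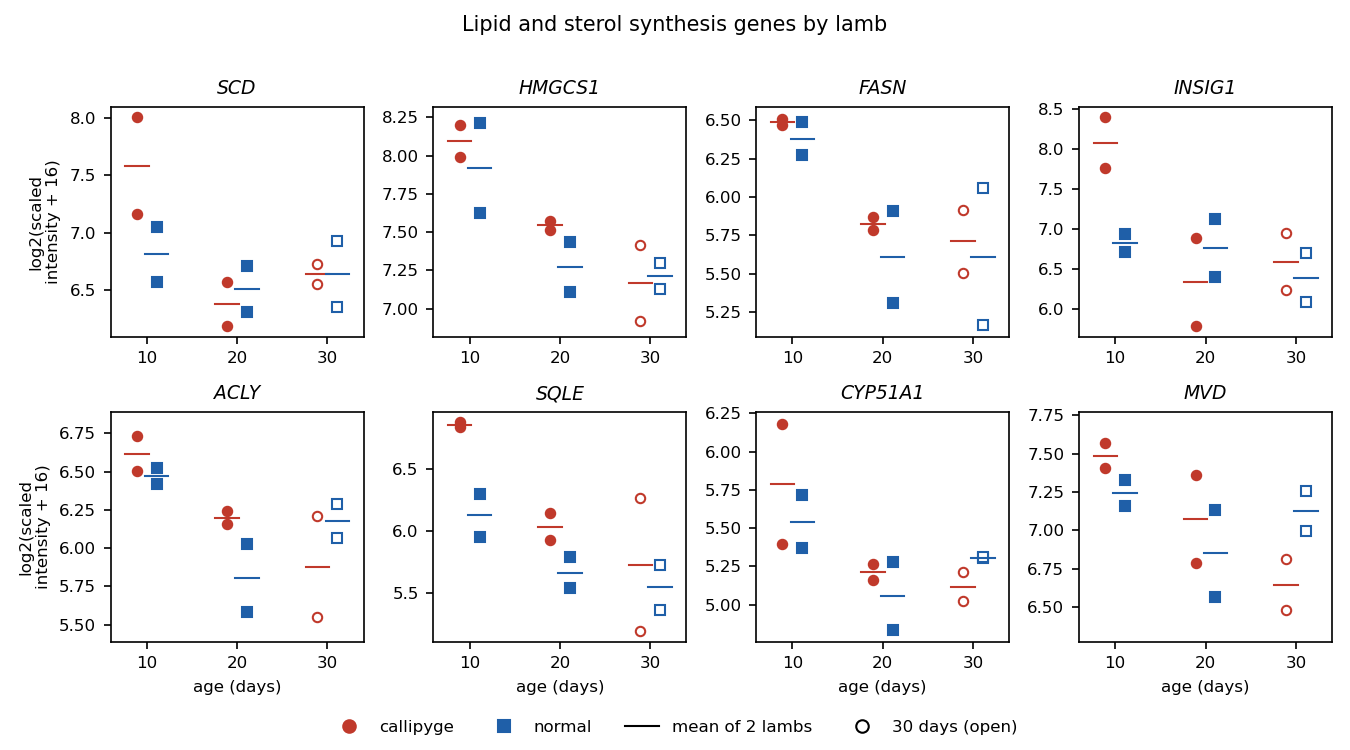
Level of the 8 lipid and sterol synthesis genes with an unadjusted p under 0.05, as log2(scaled intensity + 16) against age in days, 1 point per lamb and bars for means of 2 lambs. HMGCS1, FASN, ACLY and CYP51A1 show no overlap between 10 and 20 days, whereas the normal lambs' INSIG1 means differ by -0.06.

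Of 27 tested genes of fatty acid breakdown 17 lay above 0, 4 with an unadjusted p under 0.05, and 1 lay lower at that level. The median was 0.17, with 0.10 to 0.19 when single arrays were left out, and without scaling it was 0.32, with 6 genes higher. UCP3, a mitochondrial carrier raised when muscle burns fat, was 9.46 and 9.18 in callipyge and 8.87 and 9.52 in normal lambs at 10 days, and 10.38, 10.03, 9.29 and 9.75 at 20 days. Both callipyge lambs of 20 days lay above all lambs of 10 days, but normal lambs overlapped. The difference was 0.60 ± 0.17 (SE; limma adjusted p = 0.299). ACADM, the medium-chain acyl-CoA dehydrogenase, differed by 0.99 ± 0.32 (SE), by 1.01 in callipyge and 0.96 in normal lambs. ACAA2, the thiolase of the last step of the cycle, differed by 0.44 ± 0.15 (SE).

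CD36, which carries fatty acids into the fibre, differed by 0.58 ± 0.22 (SE) over both genotypes, but by -0.31 in callipyge and 1.47 in normal lambs. In normal lambs it was 9.05 and 9.20 at 10 days and 10.70 and 10.49 at 20 days, while callipyge lambs ranged from 9.04 to 10.05 over both ages. The difference between genotypes had an unadjusted p of 0.00134 and did not pass after adjustment. Leaving out single arrays gave 3 to 8 genes of the list higher and 0 to 2 lower, the 8 without the normal 10 day replicate 2 array. From 20 to 30 days the list's median was -0.10.

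Mitochondrial energy genes showed small differences next to those of the lipid enzymes. Of 77 tested respiratory chain genes 5 lay lower and 0 higher at an unadjusted p under 0.05, with a median of -0.07. Without scaling, where the median of all probe sets was 0.10, 1 lay lower and the list's median was 0.07. The complex I subunits NDUFS4 (-0.36 ± 0.10, SE), NDUFA5 (-0.38 ± 0.14, SE) and NDUFS6 (-0.34 ± 0.14, SE) were among the 5; other probe sets of NDUFA5 differed by -0.03 and -0.29. UQCRQ, a subunit of complex III, was 8.82 and 8.81 in normal lambs at 10 days and lay between 6.56 and 7.71 in the other 6 lambs. The list's median was 0.03 in callipyge and -0.14 in normal lambs. Without the callipyge 10 day replicate 2 array 2 of the 77 lay lower, without the normal 10 day replicate 2, normal 20 day replicate 1 or normal 20 day replicate 2 array 3 did, and without the 30 day replicate 2 arrays 7 did. From 20 to 30 days, where 7.22% of all genes lay lower at that level, 61 of the 77 did so and the median was -0.35; the 2 intervals share the 20 day arrays.

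Mitochondrial ribosome and import genes (62 tested) had 3 lower and 0 higher, with a median of -0.07, or 0.06 without scaling. MRPL3 (-0.73 ± 0.16, SE, limma adjusted p = 0.19) and MRPS34 (-0.59 ± 0.16, SE) are proteins of the mitochondrial ribosome. MRPS36 (-0.67 ± 0.18, SE), which was listed by its symbol, was the other of the 3. MRPS34 did not overlap between ages, although a second probe set for it differed by -0.09. Cytoplasmic ribosomal proteins (61 tested) had 49 genes below 0 and 12 above, yet only 3 lower at an unadjusted p under 0.05, RPL32, RPS7 (-0.34 ± 0.10, SE) and RPS26 (-0.33 ± 0.12, SE), and a median of -0.07. A second RPS7 probe set differed by 0.07, and dimmer RPS3 probe sets, not counted, by 0.39 and -0.18. Without scaling 1 gene lay lower and the median was 0.07. Their median from 20 to 30 days was -0.35, with 54 of the 61 lower. Without the 30 day replicate 2 arrays 5 mitochondrial ribosome and 6 cytoplasmic ribosomal genes lay lower from 10 to 20 days.

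Interferon is the cytokine of the antiviral response. Of 13 tested genes that respond to it 10 lay above 0 and 3 below, 6 higher with an unadjusted p under 0.05 and none lower at that level, and 5 had no overlap between ages. Another 10 genes of the list were too dim to test. The median was 0.33, with 0.26 in callipyge and 0.37 in normal lambs. MX1, a GTPase that blocks viral replication, was 5.12 and 5.42 in callipyge and 4.91 and 5.35 in normal lambs at 10 days, and 5.72, 6.30, 5.94 and 5.90 at 20 days. The 10 day levels of MX1 lay on both sides of the filter's cut, 5.25. IFI27, a small interferon-induced membrane protein, was 6.13, 6.28, 5.95 and 6.83 at 10 days and 6.85, 7.96, 8.33 and 7.21 at 20 days, callipyge lambs first. Neither overlapped, although the highest young lamb and the lowest older lamb for IFI27 were close. The differences were 0.77 ± 0.20 (SE; limma adjusted p = 0.287) and 1.29 ± 0.35 (SE; limma adjusted p = 0.289).

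IFI6 (0.75 ± 0.30, SE), SAMD9 (0.57 ± 0.24, SE) and the antiviral enzyme RSAD2 (0.43 ± 0.19, SE) did not overlap either, and IFITM1, which hinders viral entry, differed by 0.36 ± 0.15 (SE) with overlap. Averaged over the 13 genes, the level relative to all genes ran from -1.30 to -1.08 at 10 days and from -1.03 to -0.62 at 20 days. The count of 6 was 3 without the callipyge 10 day replicate 1 array, without the callipyge 20 day replicate 1 array or without the normal 20 day replicate 1 array, and 6 without the 30 day replicate 2 arrays. The list's median from 20 to 30 days was -0.01.

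Antigen presentation, which shares its induction by interferon, had 12 tested genes, 10 of them above 0 and 2 with an unadjusted p under 0.05, and a median of 0.34. B2M, the light chain of MHC class I, differed by 0.51 ± 0.18 (SE), with 0.32 in a second probe set. BOLA-DRB3, a class II chain, differed by 0.72 ± 0.27 (SE), with -0.04 in a second probe set. The callipyge median was 0.52 and the normal median 0.02. The median over both was 0.20 without the normal 10 day replicate 1 array, 0.21 without the callipyge 10 day replicate 1 array and 0.27 to 0.34 without any other. Leaving out single arrays gave 1 to 5 genes, and 4 were higher without scaling and 3 after quantile normalization. The count was 1 without the callipyge replicate 1 array of 10 or of 20 days or the normal 10 day replicate 1 array, 4 without the callipyge 20 day replicate 2 array and 5 without the normal 10 day replicate 2 array.

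Markers of white blood cells were mostly too dim to test. Of 19 leukocyte and T cell markers with a probe set 5 were tested; PTPRC, which encodes the pan-leukocyte protein CD45, and the T cell genes CD3D and CD3G fell below the filter. ITGB2, the shared beta chain of leukocyte integrins, differed by 0.48 ± 0.21 (SE) and was the only one of the 5 with an unadjusted p under 0.05. The intensity summed over all 19, dim ones included, was 419 to 500 at 10 days and 424 to 660 at 20 days. Averaged over the tested genes of the list, the level relative to all genes was -0.89 in callipyge replicate 1 of 20 days. It was -1.44 to -1.30 in the other lambs of that age and -1.65 to -1.30 at 10 days. The list's median difference was 0.39 in callipyge and 0.02 in normal lambs. Of 15 macrophage and myeloid markers 7 were tested, and 6 of these lay above 0, none with an unadjusted p under 0.05. The sum over all 15, dim ones included, was 266 to 436 at 10 days and 348 to 503 at 20 days. CSF1R (0.72 ± 0.35, SE) and CD68 (0.37 ± 0.18, SE) were the nearest. The macrophage count was 0 to 2 when single arrays were left out, 2 without scaling and 3 after quantile normalization. The part of these cells in the interferon and antigen presentation values was not tested.

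The complement list had 10 tested genes and 2 higher. Leaving out single arrays gave 2 genes without the callipyge or the normal replicate 1 array of 10 days or either normal array of 30 days, and 1 without any of the others. C1S, a protease that starts the classical complement cascade, was 5.22 and 4.90 in callipyge and 5.54 and 5.27 in normal lambs at 10 days and 6.08, 5.76, 6.28 and 5.69 at 20 days. It did not overlap and differed by 0.72 ± 0.22 (SE; limma adjusted p = 0.382). Its 10 day levels lay on both sides of the filter's cut, 5.25. CFD, the protease that activates the alternative pathway and also a gene of the adipocyte list, differed by 0.46 ± 0.21 (SE) with overlap.

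Immediate early genes, which are switched on within minutes by stress, handling or growth signals, had a median of 0.40, or 0.28 to 0.52 when single arrays were left out. Of 22 tested genes 21 lay above 0, 8 with an unadjusted p under 0.05 and none lower. In contrast to the interferon list no gene was free of overlap between ages. The genotypes stood apart, with a median of 0.09 in callipyge lambs, where 14 of 22 lay above 0, and 0.69 in normal lambs, where 21 did; this was not tested for the list. FOS, a component of the AP-1 transcription factor, was 9.31 and 9.55 in callipyge but 6.37 and 7.73 in normal lambs at 10 days. At 20 days it was 6.81 and 10.68 in callipyge and 10.24 and 11.30 in normal. The 2 callipyge lambs of 20 days thus held the lowest and the second highest value of that age.

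FOS changed by -0.69 in callipyge and by 3.72 in normal lambs, with an unadjusted p of 0.00297 and an adjusted p of 0.996 for the difference in limma. That difference was -4.41 over all arrays and -6.34 without callipyge 20 day replicate 2, the higher of those 2 lambs, so its size turned on which lamb was kept. EGR1, another transcription factor of this class, was 7.34 and 7.37 in callipyge and 6.95 and 6.27 in normal lambs at 10 days and 6.98, 6.92, 9.24 and 8.13 at 20 days. Only the normal lambs of 20 days stood above the rest, with a change of 2.08 against -0.40 in callipyge.

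KLF10 and KLF4, zinc finger factors, lay higher at 20 days in both genotypes. KLF10 was 7.77 and 7.47 in callipyge and 8.90 and 8.82 in normal lambs at 10 days, and 8.35, 8.15, 9.44 and 10.09 at 20 days. The ages overlapped over all 8 lambs but not within either genotype, since normal lambs lay above callipyge lambs at both ages. The difference was 0.77 ± 0.18 (SE; limma adjusted p = 0.213), and that of KLF4 was 0.84 ± 0.24 (SE; limma adjusted p = 0.312). The secreted matrix proteins CCN1 (0.62 ± 0.27, SE) and CCN2 (0.59 ± 0.20, SE), the AP-1 component JUN (0.38 ± 0.16, SE) and the growth-restraining BTG1 (0.31 ± 0.14, SE) completed the 8. The other JUN probe sets differed by 0.37, 0.21 and 0.02.

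The mean of the immediate early list relative to all genes was 0.63, 0.60, 0.36 and 0.55 at 10 days and 0.51, 0.84, 1.15 and 1.46 at 20 days, callipyge lambs first. Both normal lambs of 20 days lay above all others, and callipyge replicate 1 of 20 days lay among the young lambs. The count of 8 was 5 without the normal 10 day replicate 1, the callipyge 20 day replicate 2 or the normal 20 day replicate 2 array, and it stayed 8 without the 30 day replicate 2 arrays.

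**Figure D3:**
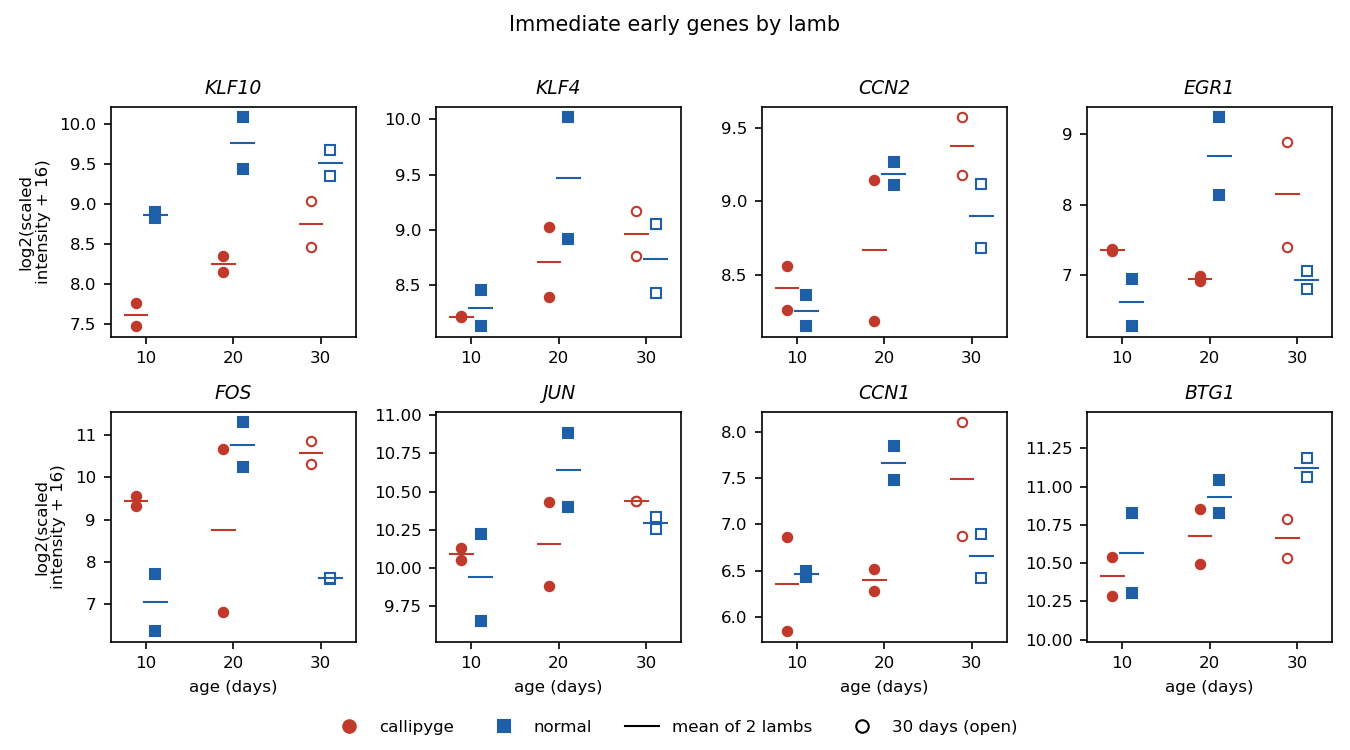
Level of the 8 immediate early genes with an unadjusted p under 0.05, as log2(scaled intensity + 16) against age in days, 1 point per lamb and bars for means of 2 lambs. For FOS the callipyge lambs of 20 days lie at 6.81 and 10.68, while the normal lambs go from 6.37 and 7.73 at 10 days to 10.24 and 11.30.

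Of 26 tested ubiquitin ligase and autophagy genes 18 lay above 0, 3 with an unadjusted p under 0.05 and none lower at that level, with a median of 0.11. BNIP3, a receptor that marks mitochondria for removal, was 8.31 and 7.90 in callipyge and 7.18 and 7.53 in normal lambs at 10 days, and 8.68, 8.35, 8.92 and 8.44 at 20 days. The ages did not overlap, though the highest young and the lowest older lamb, both callipyge, were close. The difference was 0.87 ± 0.23 (SE; limma adjusted p = 0.289), with 0.77 in a second probe set. Its relative BNIP3L differed by 0.46 ± 0.21 (SE) and MAP1LC3A, which coats the autophagosome membrane, by 0.62 ± 0.22 (SE). LAMP2, a lysosome membrane protein picked after its values were seen, differed by 0.85 ± 0.21 (SE; limma adjusted p = 0.254) in one probe set and by -0.13 in another. Leaving out single arrays gave 2 to 4 genes, and 5 were higher without scaling. The proteasome list (30 tested) had 0 genes in either direction and a median of -0.03, or 0.11 without scaling. Dimmer probe sets, not counted there, differed by 0.80 ± 0.22 (SE) for PSMC6, 0.03 for PSMB2, -0.16 for PSMC2 and 0.14 for PSMD4.

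Contractile proteins showed few differences. MYH8, the neonatal myosin heavy chain, was 8.89 and 7.61 in callipyge and 8.69 and 7.35 in normal lambs at 10 days, and 6.71, 7.55, 6.83 and 6.61 at 20 days. In each genotype 1 young lamb was high and 1 was near the older lambs, so the ages overlapped. The difference was -1.21 ± 0.34 (SE; limma adjusted p = 0.306), or 2.32-fold lower, and was similar in callipyge (-1.12) and normal lambs (-1.30). The embryonic myosin MYH3 differed by 0.38 ± 0.45 (SE). The embryonic and neonatal list had 6 tested genes, of which MYH8 alone had an unadjusted p under 0.05; its median was -0.17 in this interval and -0.17 in the next.

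Adult fibre genes were near 0 on balance, with medians of -0.06 over 9 fast fibre genes, or 0.09 without scaling, and 0.06 over 11 slow fibre genes. MYLK2, the skeletal myosin light chain kinase, differed by 0.88 ± 0.26 (SE), with overlap, and PFKFB1, a regulator of glycolysis, by -0.38 ± 0.16 (SE). TNNC1, the slow troponin C, differed by 0.45 ± 0.20 (SE), with 0.18 in callipyge and 0.71 in normal lambs. Of 23 shared sarcomere genes, CAPZB, a cap of the thin filament's barbed end, was the single one with an unadjusted p under 0.05, at -0.54 ± 0.13 (SE; limma adjusted p = 0.232). It was 9.18, 9.20, 8.87 and 8.98 at 10 days and 8.85, 8.56, 8.38 and 8.28 at 20 days, callipyge lambs first, with no overlap.

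Genes of excitation and calcium handling (20 tested) had 1 higher, RCAN1, and 3 lower. CACNB1, the beta subunit of the muscle calcium channel that triggers contraction, was 10.47 and 10.70 in callipyge and 10.46 and 10.37 in normal lambs at 10 days, and 9.99, 10.00, 9.80 and 10.08 at 20 days. The ages did not overlap and replicates were close, with a difference of -0.53 ± 0.11 (SE; limma adjusted p = 0.162), although 2 other CACNB1 probe sets differed by -0.10 and -0.15. The channel's CACNA2D1 subunit (-0.64 ± 0.22, SE) had no overlap either, and ASPH, whose locus also encodes the calcium store protein junctin, differed by -0.46 ± 0.18 (SE). Leaving out single arrays gave 1 to 2 genes higher and 2 to 4 lower, whereas without scaling 2 lay higher and 0 lower.

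Among growth regulators IGF2, the imprinted fetal growth factor, was 11.53 and 11.93 in callipyge and 11.99 and 10.93 in normal lambs at 10 days, and 11.46, 11.29, 10.74 and 9.96 at 20 days. The ages overlapped through normal replicate 2 of 10 days. The difference was -0.73 ± 0.23 (SE; limma adjusted p = 0.382), with -0.78 in a second probe set. RPTOR, the scaffold of the mTOR growth complex, differed by -0.44 ± 0.15 (SE) and DDIT4, which restrains that complex, by 0.50 ± 0.16 (SE). Both differed mainly in callipyge lambs, by -0.82 and 0.96, against -0.06 and 0.03 in normal lambs, and neither genotype difference passed. In the list of 22 growth signalling genes 1 lay higher and 3 lower, or 0 to 2 and 1 to 3 when single arrays were left out, and 1 and 1 without scaling.

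Of 14 myogenic regulators 2 lay higher and 1 lower, or 1 to 3 and 0 to 1 when single arrays were left out. ID1 (0.56 ± 0.18, SE) and ID3 (0.42 ± 0.18, SE), which block myogenic transcription factors by binding their partners, lay higher with overlap, and ID2 differed by 0.53 ± 0.27 (SE). MYOD1, a master regulator of muscle identity, differed by -0.38 ± 0.16 (SE), by 0.06 in callipyge and -0.82 in normal lambs. The 31 tested cell cycle genes held 0 with an unadjusted p under 0.05, with a median of -0.12, or 0.01 without scaling. The 37 collagen and matrix genes held 3, all higher, the proteoglycans DCN (0.30) and BGN (0.50, with 0.14 in a second probe set) and the glycoprotein TNC (0.39). That count ran from 0 to 4 when single arrays were left out, with 0 reached without the normal 10 day replicate 2 array and 1 without the callipyge 20 day replicate 2 or the normal 20 day replicate 1 array. When both 30 day replicate 2 arrays were left out 5 genes of this list lay lower.

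At the callipyge locus 3 genes were tested and none had an unadjusted p under 0.05. DLK1, the membrane protein raised in callipyge muscle, was 10.45 and 10.46 in callipyge and 9.05 and 8.62 in normal lambs at 10 days, and 10.95, 11.17, 8.48 and 8.45 at 20 days. The genotypes were separate at both ages. DLK1 changed by 0.60 in callipyge and -0.37 in normal lambs, and that difference had an unadjusted p of 0.0188 and did not pass. A second DLK1 probe set differed by -0.13 over both genotypes. MEG3 was 10.36 and 8.90 in callipyge and 8.86 and 6.88 in normal lambs at 10 days, and 10.43, 10.83, 7.63 and 7.30 at 20 days. At 10 days callipyge replicate 2 and normal replicate 1 lay close together, while at 20 days the genotypes were far apart. Its change was 1.00 in callipyge and -0.40 in normal lambs. The other 4 MEG3 probe sets changed by 0.20, 0.50, -0.32 and 0.00 in callipyge and by -0.05, 0.96, 0.11 and -0.01 in normal lambs.

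**Figure D4:**
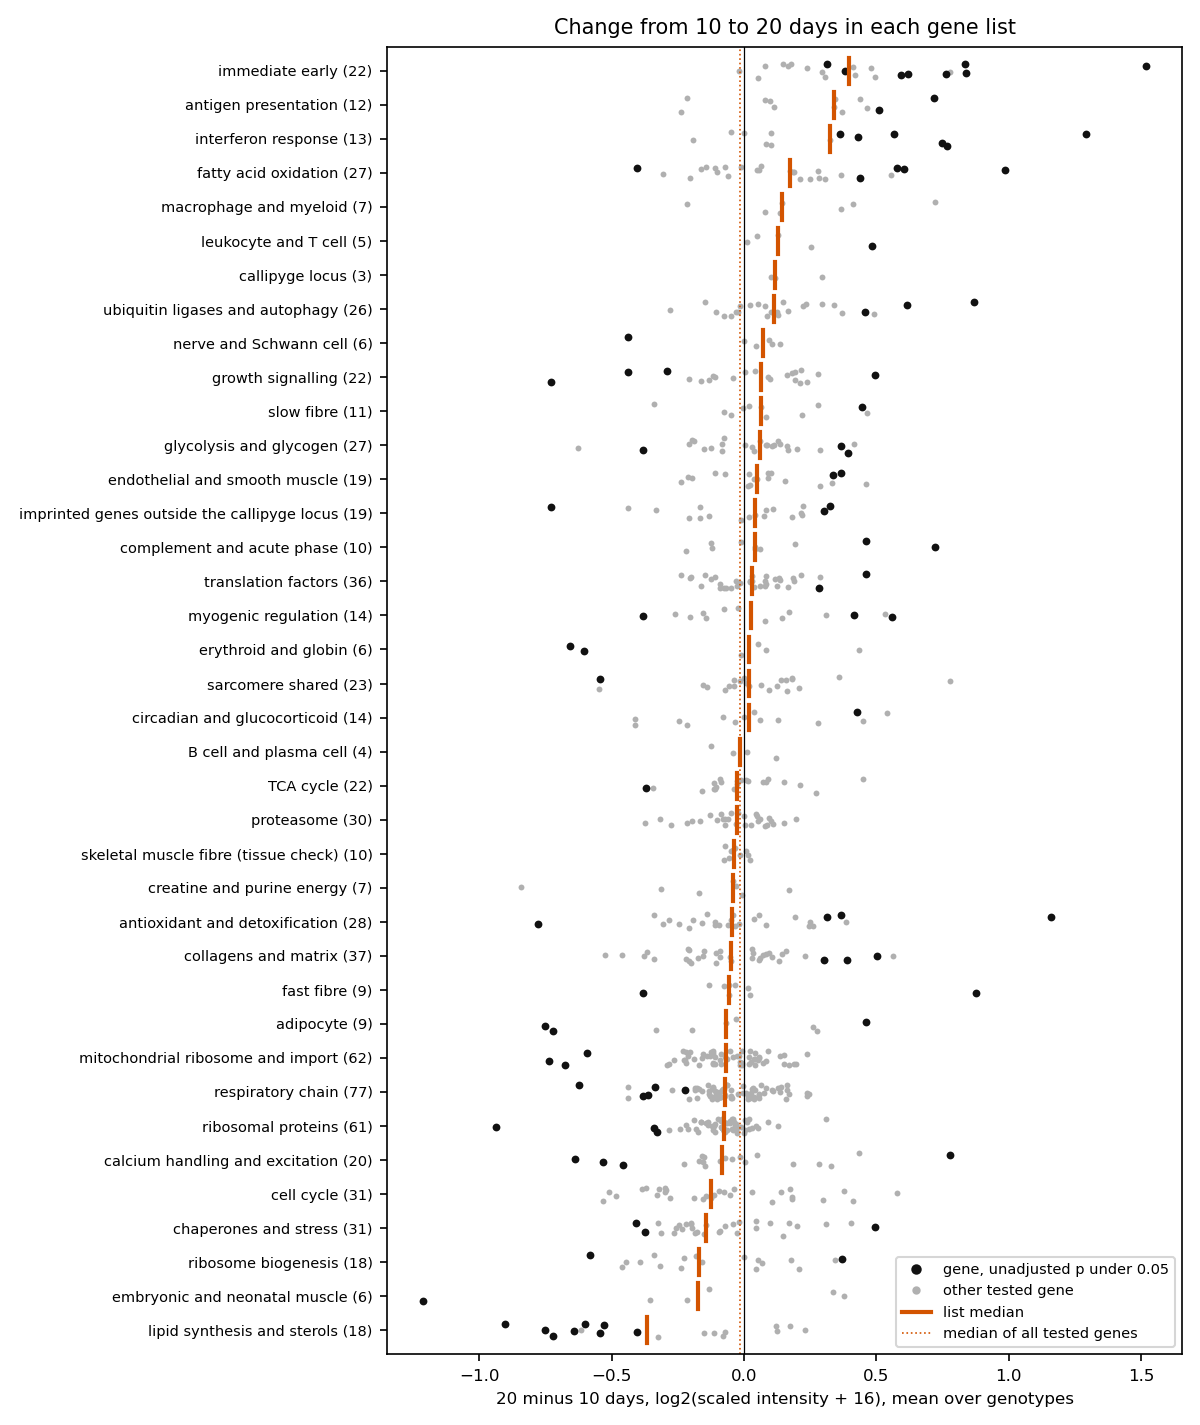
Change from 10 to 20 days of each tested gene in 38 lists, as 20 minus 10 days on the log2(scaled intensity + 16) scale, averaged over genotypes. Black dots are genes with an unadjusted p under 0.05, grey dots other genes, vertical bars list medians (number of tested genes in brackets) and the dotted line the median of all tested genes at -0.02; medians run from -0.36 for lipid and sterol synthesis to 0.40 for immediate early genes.

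Protective genes split. GPX3 was joined by PRDX6 (0.37 ± 0.14, SE; 0.11 and -0.26 in its other probe sets), another peroxidase, and by NFE2L2 (0.31 ± 0.14, SE), the regulator of many antioxidant genes, whereas SOD3, the extracellular superoxide dismutase, differed by -0.78 ± 0.26 (SE). SOD3 was 5.68, 5.70, 6.68 and 6.03 at 10 days and 5.06, 4.72, 5.64 and 5.56 at 20 days, callipyge lambs first. The ages did not overlap, and normal lambs lay above callipyge lambs at both. Of the 28 tested antioxidant genes 3 lay higher and 1 lower, and the median was -0.04, or 0.10 without scaling. Among 31 chaperone and stress genes ATF4, which drives the amino acid stress response, lay higher by 0.49 ± 0.15 (SE), while the co-chaperone BAG3 (-0.37 ± 0.15, SE) and the small heat shock protein HSPB3 (-0.41 ± 0.18, SE) lay lower. Leaving out single arrays gave 1 to 4 antioxidant genes higher and 1 to 2 lower, and 1 to 3 chaperone and stress genes higher and 0 to 3 lower. Without scaling 0 chaperone and stress genes lay lower. Among dimmer probe sets, not counted there, those of the heat shock gene HSPH1 differed by -0.85 ± 0.19 (SE) and -0.19 ± 0.28 (SE).

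The change was also fitted in each genotype alone. In callipyge lambs 0 probe sets passed in limma (smallest adjusted p 0.101) and 724 had an unadjusted p under 0.05 (6.03%). In normal lambs 0 passed (smallest adjusted p 0.0987) and 816 did so (6.8%). RLIM, RPL32 and 1 probe set without a symbol had an adjusted p under 0.10 in normal lambs. The changes of the 2 genotypes use different lambs. Across the 12008 probe sets they correlated at r = 0.165 and had the same sign in 55.9%; genes are not independent replicates. The sign was shared by 63.1% of the 724 and by 64.7% of the 816.

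The difference between the genotypes' changes passed for 0 probe sets in limma, with a smallest adjusted p of 0.996, and 530 had an unadjusted p under 0.05 (4.41%), fewer than the 600.4 given by chance. The 3 genes with the smallest p where the callipyge change lay below the normal one were NECAP2, an endocytosis protein (-1.57 ± 0.33, SE), MTFMT, which formylates the mitochondrial initiator tRNA (-1.51 ± 0.37, SE), and OLFM1, a secreted olfactomedin (-2.06 ± 0.50, SE). NECAP2 was 6.12 and 6.41 in callipyge lambs at 10 days and 4.90 and 5.01 at 20 days, while the normal lambs were 6.04 and 5.79, then 6.24 and 6.11. The callipyge lambs of 20 days were thus the low ones. All 3 OLFM1 probe sets had this sign, at -2.06, -1.77 and -1.43. The 3 where the callipyge change lay above were RPL39 (1.72 ± 0.36, SE), CDC73 of the transcription elongation complex PAF (1.34 ± 0.31, SE) and G6PC3, a glucose-6-phosphatase (1.24 ± 0.30, SE).

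The interval from 20 to 30 days was set beside this one. The 20 day arrays enter both with opposite sign, so a high or low 20 day value alone moves them apart. For the later interval 1 probe set without a symbol passed in limma (1.07; adjusted p = 0.0441). The difference between the intervals passed for 0 probe sets (smallest adjusted p 0.292), and 717 had an unadjusted p under 0.05 (5.97%). CLK3 differed by -1.19 and then 0.85, and LRRC3 by -0.99 and then 0.65. Both were dim at 20 days, with means of 4.74 and 4.84. XRCC6, the DNA end-binding protein Ku70, differed by -0.72 and then 0.55, with 4.70 and 5.04 in the callipyge lambs of 20 days against 6.12 to 6.26 in the 4 young lambs and the 2 normal lambs of 20 days. HCCS, which attaches haem to cytochrome c, was 7.47, 7.50, 7.60 and 7.63 at 10 days and 8.01, 8.28, 8.25 and 8.62 at 20 days, with no overlap, then 7.45, 7.48, 7.26 and 7.88 at 30 days. It differed by 0.74 and then -0.77, and RCAN1 by 0.78 and then -0.34. ATP5F1E, a subunit of ATP synthase, differed by 0.14 and then -0.53.

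List medians behaved differently over the 2 intervals. Lipid synthesis, immediate early, interferon and antigen presentation genes had medians of -0.36, 0.40, 0.33 and 0.34 in the earlier interval and of -0.02, 0.05, -0.01 and 0.12 in the later one. Respiratory chain, ribosomal protein and mitochondrial ribosome genes had medians of -0.07 each in the earlier interval, positive without scaling as given above, and of -0.35, -0.35 and -0.22 in the later one. The difference between intervals was tested gene by gene, as above, and not for lists.

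**Figure D5:**
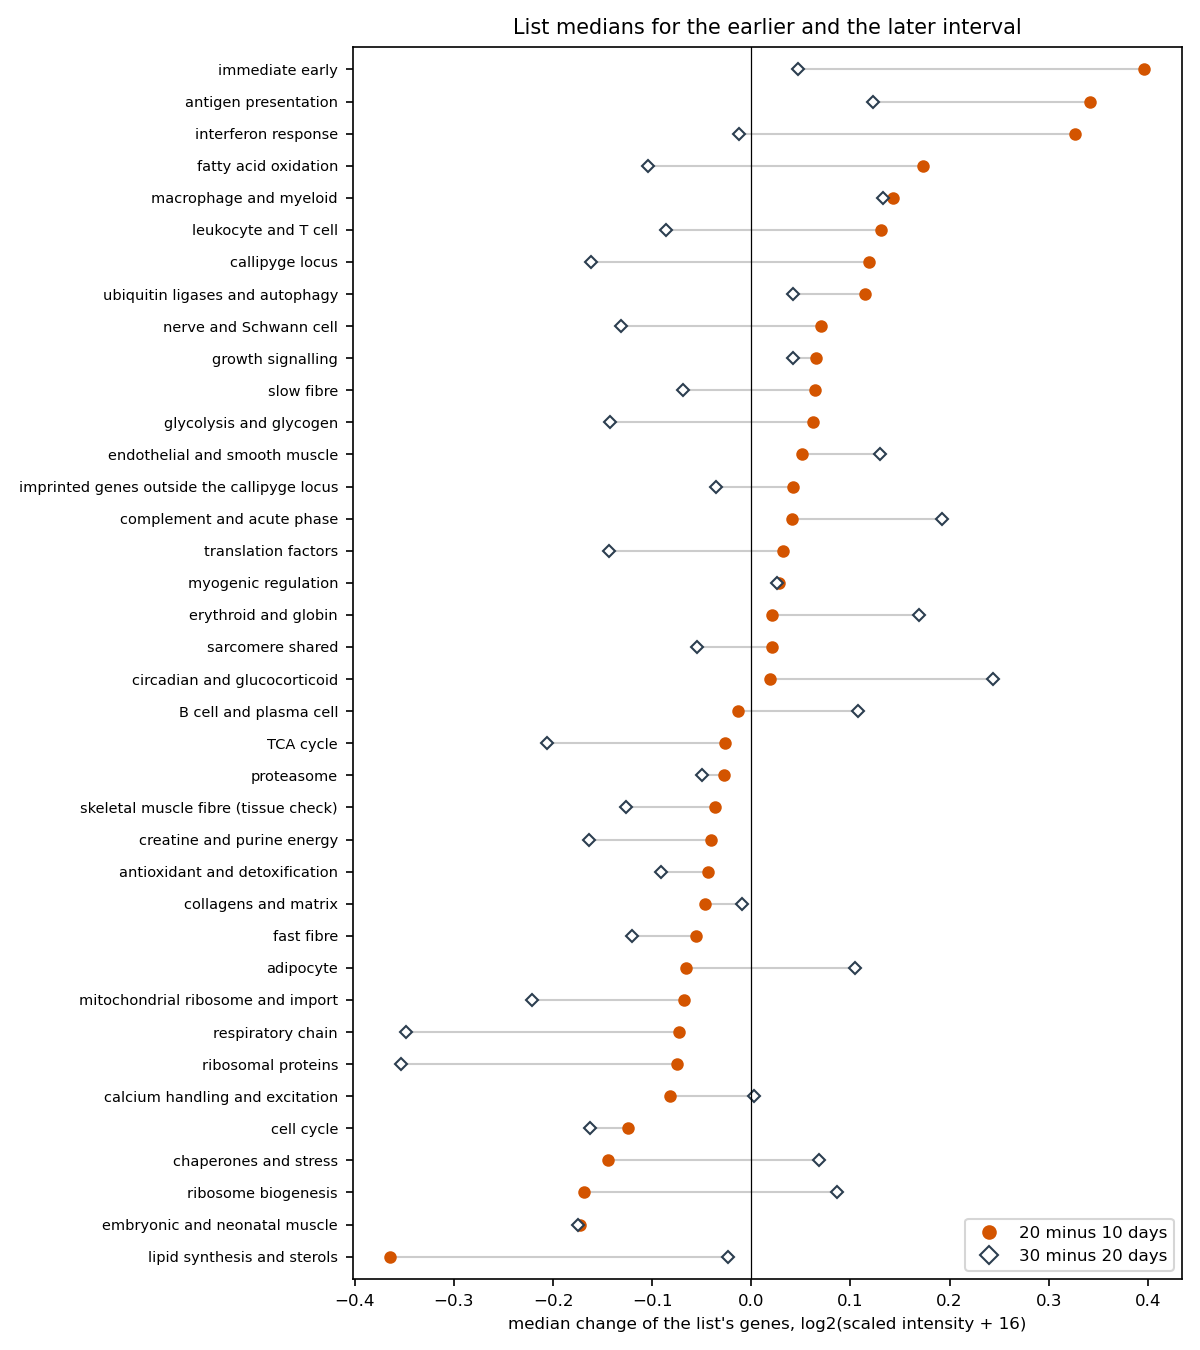
Median change of the tested genes of each list from 10 to 20 days (filled circles) and from 20 to 30 days (open diamonds), on the log2(scaled intensity + 16) scale and averaged over genotypes. Lipid and sterol synthesis goes from -0.36 to -0.02 and the respiratory chain from -0.07 to -0.35; both intervals use the 20 day arrays.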

How the data were processed

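Biotin-labelled RNA of each lamb's longissimus dorsi was hybridised to 1 bovine expression array. The authors deposited linear intensities, 1 for each probe set, and the submitters' processing notes name MAS5 and GCOS; version and scaling target are not given in the sources used here. Of 24128 probe sets none had a missing value (0). Array means trimmed by 2% at each end lay between 55.7 and 105.7.

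Each array was multiplied to the mean of these, 79.2, then 16 was added and log2 taken. The 112 control probe sets were dropped and probe sets above the median mean level, 5.25, were tested. Limma 3.58.1 in R 4.3.3 fitted 6 group means over all 12 arrays (lmFit, contrasts, eBayes with an intensity trend; 6 residual and 6.93 prior degrees of freedom), with Benjamini-Hochberg adjustment over 12008 probe sets and a threshold of 0.05. The change was averaged over genotypes. The fit was tested on simulated data. The number of arrays limits the precision.

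In the array's annotation 13292 probe sets carried 1 gene symbol, 86 several and 10638 none. Named genes were those past the threshold or, as none passed, by smallest p, 6 higher and 6 lower genes, 3 and 3 for the genotype difference and for the difference between intervals, and list members by p. Genes were read against 38 lists. Members and lists were chosen with earlier results of these data known. Plots used matplotlib 3.10.9 (Python 3.11.15). Replicate numbers do not pair lambs: of 15 pairs of groups 1 had a correlation of deviations over 0.1 (-0.06 to 0.11).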

Additional observations from a re-analysis of the deposited data

Results flagged for a closer look

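In 7 of 240 sets of 4 lambs of one age, 1 lamb stood apart from the other 3 by more of the set's whole range than Dixon's critical value for 4 values allows, which chance gives in about 1 of 20 sets. At 20 days, callipyge replicate 2 had the highest CLK3 level, 5.18, with the next at 4.63. Normal replicate 2 of 20 days had the lowest WARS1 level, 7.60 against 8.23, and the highest CA2 level, 6.83 against 5.76. Callipyge replicate 1 of 20 days had the lowest level of EIF3H, 10.76 against 10.97, and of CCN2, 8.19 against 9.11. At 10 days, normal replicate 2 had the lowest FASN level, 6.27 against 6.47. Callipyge replicate 2 had the largest difference of that age between 3′ and 5′ GAPDH control probe sets, 0.37 against 0.30. The largest of all arrays, 0.53 in normal replicate 1 of 20 days, was not flagged by this rule. WARS1, an aminoacyl-tRNA synthetase gene at the callipyge locus, differed by 0.10 from 10 to 20 days and by -0.01, -0.28 and -0.21 in its other probe sets, CA2, a carbonic anhydrase in the erythroid list, by -0.60, and EIF3H, a translation initiation factor subunit, by 0.28.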

How the results depend on the processing

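The 0 probe sets called for the change from 10 to 20 days became 1 with no filter on dim probe sets (no symbol, adjusted p = 0.000797), 2 without scaling (GPX3 and 1 without a symbol), 9 with 4 group means over the 8 lambs of 10 and 20 days, and 9 without both 30 day replicate 2 arrays. The other planned settings gave 0, and leaving out single arrays gave 0 to 3: 1 without normal 10 day replicate 2, and 3 without normal 20 day replicate 2, among them LAMP2. For callipyge lambs alone the count was 1 with a pseudocount of 1, with no filter and with array weights, and 0 without any single array. For normal lambs alone it was 3 at a threshold of 0.10, 1 with no filter, 3 without scaling (FOS, EGR1 and 1 without a symbol), 5 with 4 group means over 8 lambs, 5 without both 30 day replicate 2 arrays, and 0 to 2 without single arrays, with 2 without normal 10 day replicate 2 and 1 (FOS) without either callipyge 20 day array. For the genotype difference it was 1 (ASIP) with 4 group means over 8 lambs and 1 (ASIP) without both 30 day replicate 2 arrays, and 0 to 1 without single arrays, the 1 being FOS without callipyge 20 day replicate 2. For the later minus the earlier change it was 1 without scaling, 1 (ASIP) without both 30 day replicate 2 arrays, and 0 to 1 without single arrays, the 1 being PFKFB3 without normal 30 day replicate 1. With 1 array left out, the lone lamb of its group is assumed to vary like the others. Without both 30 day replicate 2 arrays the spread comes from the 8 lambs of 10 and 20 days alone. That setting therefore nearly repeats the fit with 4 group means. The cause of these moves was not tested.

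The 1011 probe sets with an unadjusted p under 0.05, a count added after seeing the data, were 1738 of 24016 tested with no filter, 579 of 6004 with a filter at the 75th percentile, and 810 to 1083 without single arrays. With the replicate number as a block 0 passed and 1036 had an unadjusted p under 0.05; the block changed no call. For 109 named genes 2916 comparisons with alternatives were made: 2902 kept direction and side of the threshold, 9 passed (GPX3, DUSP26, RPL32 and NMRK2) and 5 changed sign. The sign changes came from leaving out single arrays. MYH3 ranged from -0.024 (normal 20 day replicate 1 left out) to 0.78, MEG3 from -0.20 to 0.79 (negative with callipyge 10 day replicate 2, at -0.070, or normal 10 day replicate 2 left out), and WARS1 from -0.068 to 0.27 (negative with normal 20 day replicate 1 or normal 10 day replicate 2, at -0.017, left out).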

Other observations

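Several lists with little movement held single genes that stood out. Among glycolysis and glycogen genes (27 tested, 2 higher and 1 lower at an unadjusted p under 0.05), UGP2, which makes the glucose donor of glycogen, was 11.82, 11.73, 11.54 and 11.55 at 10 days and 12.06, 12.09, 12.04 and 11.91 at 20 days, callipyge lambs first, with no overlap and a difference of 0.37 ± 0.13 (SE). The lactate exporter SLC16A3 differed by -0.16 in callipyge and 0.95 in normal lambs, whose 10 day levels of 8.68 and 8.67 were the lowest of the 8, while its other probe sets changed by 0.16 and 0.05 in callipyge and by 0.29 and 0.13 in normal lambs. IDH3A, a subunit of the citric acid cycle's isocitrate dehydrogenase, did not overlap either, at -0.37 ± 0.17 (SE), though a second probe set differed by -0.04.

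Of 18 ribosome biogenesis genes 1 lay higher, POLR1D (0.37 ± 0.16, SE), shared by RNA polymerases I and III, and 1 lower, the nucleolar protein NCL (-0.58 ± 0.23, SE). Of 36 translation factors 2 lay higher, EIF1B (0.46 ± 0.16, SE, with no overlap) and EIF3H (0.28 ± 0.10, SE). Among 6 erythroid genes the mitochondrial iron carrier SLC25A37 differed by -0.66 ± 0.17 (SE) and CA2 by -0.60 ± 0.24 (SE). In the circadian and glucocorticoid list (14 tested) the glucocorticoid-responsive factor ZBTB16 differed by 0.43 ± 0.18 (SE), by -0.01 in callipyge and 0.86 in normal lambs. None of these genes passed after adjustment in limma, and counts of this size moved when single arrays were left out.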
